A study of Mus musculus with 6 samples.

Results

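The genes described here are 10 that encode proinflammatory cytokines and the parts of the NF-kB system that those cytokines switch on and that in turn restrain it: Tnf, Il1a, Il1b, Il1rn, Il18, Nfkb1, Nfkb2, Relb, Nfkbia and Tnfaip3. They were chosen by name, and all 10 were found among the 40481 named genes of the table of all pools (41388 genes in the tables of single pools). RNA-Seq of liver was available for 3 control pools and 3 *Mttp-IKO* pools, each holding RNA of 3 to 4 male C57BL/6 mice. The mice were aged 12 to 16 weeks, the age that the study's methods give for mice put on the diet described below. Each replicate thus averages several mice, and the spread between single mice is not seen. The pool size is that of the study's methods; the series' own design note speaks of 12 livers behind the 3 pools, without saying plainly whether that number covers both genotypes, so whether every pool held different mice is not settled. All mice carried Mttp f/f alleles, the floxed gene of the microsomal triglyceride transfer protein, with a Cre ERT2 under the Villin promoter. That promoter is active in the epithelium of the gut and not in hepatocytes, so liver Mttp is no check of the labels. *Mttp-IKO* mice had received tamoxifen for 5 days and controls vehicle; the sample labels call the controls wild type, and the study's methods call them littermates given vehicle. Tamoxifen treatment itself therefore cannot be told apart from loss of intestinal Mttp. From 3 weeks after injection, every mouse ate a methionine- and choline-deficient (MCD) diet for 3 weeks, a diet that produces steatohepatitis in mice, and livers were taken after a fast of 4 h (4 to 6 h in the study's methods). No group on another diet was sequenced in these pools, so values of an unchallenged liver are not part of the comparison. The study asked whether blocked chylomicron assembly alters inflammatory signaling in this liver, and these genes are the transcripts closest to that signaling.

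Tumor necrosis factor and interleukin-1 bind receptors that activate the IkB kinases, which mark the IkB proteins for destruction and free NF-kB dimers to enter the nucleus. Among the genes that NF-kB then transcribes are the cytokines themselves, the precursors of its own subunits, and inhibitors that close the loop. In liver much of the TNF and interleukin-1 comes from macrophages, both resident Kupffer cells and cells recruited from blood, while hepatocytes express the receptors and the inner parts of the pathway. In RNA of whole liver, fewer cells of a type and less RNA per cell cannot be told apart.

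The DNA before the start sites was searched for the sequence that NF-kB is known to bind. RefSeq promoter windows of the GRCm38.p6 assembly, from 250 bases before to 50 bases after each annotated start, were present for 8 of the 10 genes. Both strands were read for the kB consensus, a motif of 10 letters made of 3 G, a purine, any base, A or T, 2 pyrimidines and 2 C. Of all 32851 windows 4.51% held a match, and of all 27025 genes with a window 5.14% had at least 1. The 10 genes were chosen as parts of the cytokine and NF-kB system, so their share is a description and no test of enrichment. Nfkb2 and Il1rn had 3 windows each and Tnfaip3 had 2, and a gene with more windows has more places for a match. Of the 8 genes 3 held a match: Nfkb2, Nfkbia and Tnfaip3. The 140 bases before the first listed start are shown for these 3 because they carry the matches, and for Tnf because it had the largest difference between genotypes of the 10, written along the sense strand with matched bases in capitals.
Nfkb2, chr19:46304597-46304736, plus strand: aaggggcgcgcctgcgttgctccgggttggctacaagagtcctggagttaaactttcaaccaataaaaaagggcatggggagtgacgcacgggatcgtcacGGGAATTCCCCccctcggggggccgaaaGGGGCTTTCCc
Nfkbia, chr12:55492648-55492787, minus strand: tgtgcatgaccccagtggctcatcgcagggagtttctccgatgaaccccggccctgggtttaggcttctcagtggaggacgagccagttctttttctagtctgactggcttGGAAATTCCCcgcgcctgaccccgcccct
Tnfaip3, chr10:19015411-19015550, minus strand: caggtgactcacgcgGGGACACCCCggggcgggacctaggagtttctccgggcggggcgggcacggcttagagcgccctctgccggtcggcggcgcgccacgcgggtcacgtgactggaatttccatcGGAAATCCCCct
Tnf, chr17:35202008-35202147, minus strand: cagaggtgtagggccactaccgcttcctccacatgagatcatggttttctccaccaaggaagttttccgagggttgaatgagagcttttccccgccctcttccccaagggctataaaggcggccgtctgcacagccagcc
The Nfkb2 stretch held 4 matches, and all 3 Nfkb2 windows held at least 1. In the stretch they began 39 bases before the start on both strands, 38 on the minus strand and 11 on the plus strand. The 10 letters at 39 read the same on both strands, and the match at 38 overlaps them. Nfkbia had a match that began 29 bases before its start, and Tnfaip3 had matches at 125 and 12. The Tnfaip3 stretch precedes the RefSeq start but lies inside the span of the counted gene, whose 5' end is at 19015657. Both Tnfaip3 matches thus fall within that gene and not before it. The windows of Tnf, Il1a, Il1b, Il1rn and Il18 held none, which says only that these letters are not in these windows. The Il18 window (chromosome 9, 50554450 to 50554749) lies away from the counted Il18 gene, which begins at 50575273. The DNA directly before that gene was therefore not searched. A match is a string of letters and not a measured binding site.

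Of the 10 genes, Tnf had the largest difference between genotypes. Its mean level was 3.26 times as high in control as in *Mttp-IKO* pools, but the difference did not pass the threshold over all genes. Nfkb2 and Relb, the genes of the alternative NF-kB pathway, were also lower in every *Mttp-IKO* pool than in any control pool, again without passing. The interleukin-1 genes, Il18, Nfkb1, Nfkbia and Tnfaip3 overlapped between genotypes. With edgeR's quasi-likelihood test, 0 of the 10 had an adjusted p under 0.05, where 3.09% of the 17287 genes tested were called lower and 0.920% were called higher in *Mttp-IKO* pools. At an unadjusted p under 0.05, 2 of the 10 were lower (Tnf and Nfkb2) against 13.5% of all genes, and in 3 of the 10 every *Mttp-IKO* pool was below every control pool against 16.5% of all genes. All 10 genes passed the filter on low counts. Their median log2 fold change was -0.38, with 8 of 10 below 0, beside a median of 0.0059 over all genes tested. limma-voom also called 0 of the 10, and the DESeq2 Wald test called 1, Tnf.

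**Figure D1:**
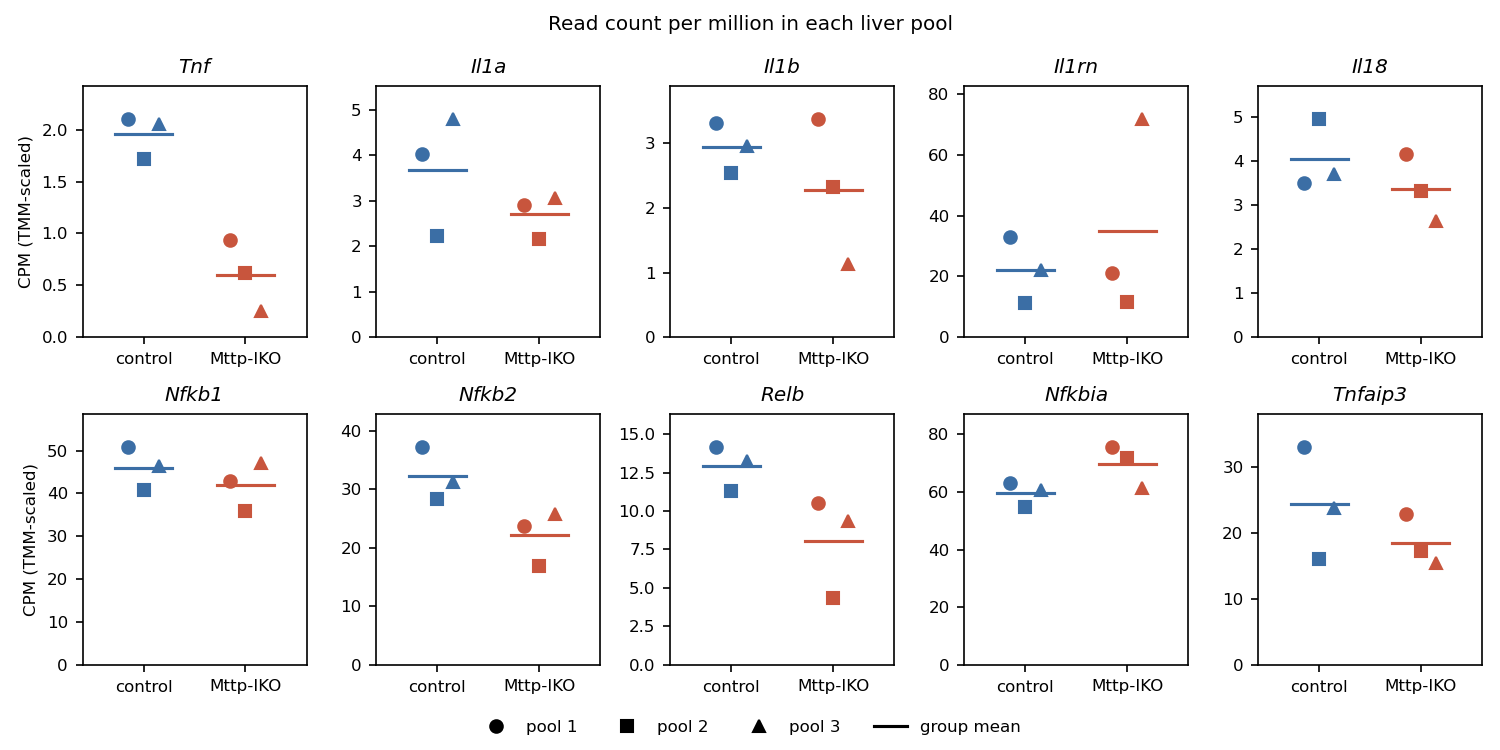
Read count relative to library size (CPM, scaled by TMM, linear axis from 0) of each of the 10 genes in 3 control and 3 *Mttp-IKO* liver pools, with marker shape for the pool number and a line for the group mean. Tnf, Nfkb2 and Relb have no overlap between genotypes, and the Il1rn value of *Mttp-IKO* pool 3 (71.9 CPM) stands apart from the other 5 pools.

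The pools held 25271585 to 36238734 reads on genes, so that a gene without a read may still lie as high as 0.0828 to 0.119 CPM (3 reads; counting error only). CPM, the reads of a gene relative to the library size of its pool, carry edgeR's TMM scaling (trimmed mean of M values), and a fold change below 0 means lower in *Mttp-IKO* pools. *Mttp-IKO* pool 3 stood apart, with 1.70% of its reads on protein-coding genes under 1000 nt against 3.64% to 3.86% in the other pools, and control pool 2 held most of the striated muscle RNA. Over all genes 694 passed the threshold, 535 of them lower; with scaling to total counts alone the split was 902 lower of 1015, and with the DESeq2 Wald test 1338 lower of 1995. Leaving out *Mttp-IKO* pool 2 left 0 genes past the threshold (3221 at an unadjusted p under 0.05, edgeR), and leaving out control pool 2 gave 892.

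Tnf encodes tumor necrosis factor, the cytokine that activates the canonical NF-kB pathway through its receptor TNFR1 (ENSMUSG00000024401, GRCm38 chromosome 17, 35199381 to 35202007, minus strand). It gave 2.11, 1.72 and 2.06 CPM in control pools 1 to 3 and 0.934, 0.617 and 0.251 CPM in *Mttp-IKO* pools 1 to 3. All *Mttp-IKO* pools were below all control pools, and the lowest control pool was well above the highest *Mttp-IKO* pool. The means were 1.96 ± 0.212 and 0.601 ± 0.342 CPM (SD, n = 3 pools), a ratio of control to *Mttp-IKO* of 3.26. The log2 fold change was -1.68 (standard error 0.444, 95% interval -2.70 to -0.66, adjusted p = 0.0760, edgeR), and an exact permutation test of 3 pools against 3 gave its smallest two-sided p, 0.1. These levels rest on few reads: 85, 62 and 66 in control pools and 29, 18 and 6 in *Mttp-IKO* pools. The exact Poisson 95% interval of the highest *Mttp-IKO* pool, 0.625 to 1.34 CPM, barely met that of the lowest control pool, 1.32 to 2.20 CPM. In *Mttp-IKO* pool 3 the interval was 0.0923 to 0.547 CPM.

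The lowest Tnf value came from the pool that was short of reads on short mRNAs. Without *Mttp-IKO* pool 3 the log2 fold change of Tnf was -1.33 (adjusted p = 0.0663, edgeR), and with the trend of each library with gene length removed it was -1.65 (adjusted p = 0.0622, edgeR). Over 18 alternatives it was below 0 in each, from -2.14 to -1.33, and its adjusted p ran from 0.00714 with the DESeq2 Wald test to 0.246 without control pool 1 (edgeR). The Tnf gene overlaps no other gene of the GENCODE M21 annotation. Its neighbours in the major histocompatibility complex belong to the same cytokine family: Lta, the gene of lymphotoxin alpha, had at most 0.0991 CPM and was not tested. Ltb, the gene of the lymphotoxin beta chain, had 2.97, 1.38 and 2.74 CPM in control pools against 1.71, 0.822 and 0.629 in *Mttp-IKO* pools (log2 fold change -1.15, adjusted p = 0.189, edgeR), with pools that overlapped. Both neighbours were named after their values had been seen.

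In MCD-fed mice, the study named Tnfa among altered inflammatory mRNAs measured by quantitative PCR. It also reported less phosphorylated NF-kB, a measure of protein, in *Mttp-IKO* liver. Its primers for Tnf and Il1b are shown here because they fix which part of each mRNA such a measurement reads. The Tnf forward primer crosses the junction of exons 1 and 2 of the 4 exons of the longest listed transcript, and the product lies in the coding sequence (67 nt, GRCm38 chromosome 17, 35201090 to 35201672). The Il1b product lies in coding exon 5 of 7 (74 nt, GRCm38 chromosome 2, 129367294 to 129367367), so genomic DNA would give a product of the same length there and not for Tnf. The study's methods state that the RNA was treated with DNase.
Tnf forward: ggtccccaaagggatgagaa
Tnf reverse: tgagggtctgggccatagaa
Il1b forward: ggtgtgtgacgttcccattagac
Il1b reverse: ccgacagcacgaggctttt
RNA-Seq counted reads over the whole gene and not at these products.

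Il1a and Il1b encode interleukin-1 alpha and beta, agonists of the same receptor; the former is released as an alarmin from damaged cells, and the latter is cut to its active form by caspase-1. Il1a (chromosome 2, 129299610 to 129309972) gave 4.04, 2.22 and 4.80 CPM in control pools against 2.90, 2.16 and 3.06 CPM in *Mttp-IKO* pools. Control pool 2 lay among the *Mttp-IKO* pools (log2 fold change -0.45, 95% interval -1.21 to 0.32, adjusted p = 0.458, edgeR). Il1b (chromosome 2, 129364570 to 129371139) gave 3.32, 2.55 and 2.96 CPM in control pools against 3.38, 2.33 and 1.13 CPM in *Mttp-IKO* pools. Its highest and its lowest value both came from *Mttp-IKO* pools (log2 fold change -0.36, 95% interval -1.25 to 0.53, adjusted p = 0.615, edgeR). Without *Mttp-IKO* pool 3 the Il1b value was -0.04. The interval of Il1b does not cover a change as large as that of Tnf, and the intervals of the pair of genes overlap, so a difference between them was not shown. Il1a and Il1b each overlap an antisense gene in GENCODE M21 (Gm14023 and Il1bos), and the sources used here do not give the strand setting of the counting.

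Il1rn encodes the interleukin-1 receptor antagonist, which occupies the receptor without signaling, and it was the most variable of the 10. Its values were 32.9, 11.3 and 22.3 CPM in control pools against 21.3, 11.5 and 71.9 CPM in *Mttp-IKO* pools (chromosome 2, 24336853 to 24351494). *Mttp-IKO* pool 3 alone exceeded every other pool, and pools 1 and 2 lay within the control range. The log2 fold change was 0.65 (standard error 0.644, adjusted p = 0.582, edgeR), and without *Mttp-IKO* pool 3 it was -0.43 (adjusted p = 0.582, edgeR), so a single pool sets its direction.

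Per length and within a pool, Il1b was 0.17, 0.378 and 0.224 of Il1rn in control pools and 0.267, 0.34 and 0.0265 of Il1rn in *Mttp-IKO* pools. The antagonist was thus the more abundant transcript in all 6 pools, and *Mttp-IKO* pool 3 had by far the lowest ratio. The log2 ratio differed by -0.86 (exact permutation test, two-sided p = 0.8), and by 0.31 without that pool. The ratio of Il1a to Il1b was 1.18, 0.84 and 1.57 in control pools and 0.828, 0.895 and 2.61 in *Mttp-IKO* pools, with the genotypes interleaved (difference in log2 ratio 0.11, exact permutation test, two-sided p = 0.9). In 4 ratios compared, the adjusted p values were 0.4 to 0.9.

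Il18 encodes interleukin-18, which like interleukin-1 beta is stored as a precursor and released after caspase-1 cleavage (chromosome 9, 50575273 to 50581837). It gave 3.49, 4.96 and 3.71 CPM in control pools against 4.15, 3.32 and 2.64 CPM in *Mttp-IKO* pools. The genotypes overlapped (log2 fold change -0.26, 95% interval -0.87 to 0.35, adjusted p = 0.591, edgeR). At 714 nt its gene model is the shortest of the 10, and its lowest value was that of *Mttp-IKO* pool 3; with the length trend removed its log2 fold change was -0.18.

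Nfkb1 and Nfkb2 encode the precursors p105 and p100, which are processed to the NF-kB subunits of the canonical and of the alternative pathway. Nfkb1 (chromosome 3, 135584655 to 135691547) gave 50.9, 40.7 and 46.4 CPM in control pools against 42.9, 35.8 and 47.2 CPM in *Mttp-IKO* pools. These values were interleaved, and its log2 fold change was the smallest in size of the 10 (-0.13, 95% interval -0.51 to 0.24, adjusted p = 0.664, edgeR). Nfkb2 (chromosome 19, 46304737 to 46312090) gave 37.3, 28.3 and 31.3 CPM in control pools against 23.8, 16.9 and 25.8 CPM in *Mttp-IKO* pools. Each *Mttp-IKO* pool was below each control pool, with the lowest value in *Mttp-IKO* pool 2. The log2 fold change of Nfkb2 was -0.54 (standard error 0.2, 95% interval -1.0 to -0.08, adjusted p = 0.160, edgeR; exact permutation p = 0.1). It ran from -0.72 to -0.38 over 18 alternatives, and its adjusted p from 0.0918 to 0.421 (edgeR).

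The ratio of Nfkb2 to Nfkb1 within a pool needs no scaling between pools. Per length it was 1.06, 1.01 and 0.981 in control pools and 0.806, 0.685 and 0.795 in *Mttp-IKO* pools. Transcripts of both genes were thus close to equal in every control pool, and Nfkb2 was the less abundant in every *Mttp-IKO* pool. The difference in the log2 ratio was -0.42 (exact permutation p = 0.1 two-sided, the smallest possible; 0.4 adjusted over the 4 ratios), and it lay between -0.46 and -0.35 with any pool omitted. Nfkb2 overlaps Psd and a further gene on the opposite strand in GENCODE M21, and Nfkb1 overlaps a gene on its own strand.

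Relb encodes the subunit that pairs with the product of Nfkb2 in the alternative pathway (chromosome 7, 19606217 to 19629438). It gave 14.2, 11.3 and 13.3 CPM in control pools against 10.5, 4.32 and 9.34 CPM in *Mttp-IKO* pools. No *Mttp-IKO* pool reached the control range, and *Mttp-IKO* pool 2 was again the lowest. The log2 fold change was -0.68 (standard error 0.314, 95% interval -1.40 to 0.04, adjusted p = 0.243, edgeR; exact permutation p = 0.1). Without *Mttp-IKO* pool 2 it was -0.38 (adjusted p = 0.359, edgeR), so the size of the Relb difference rests in good part on that pool.

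Nfkbia and Tnfaip3 encode the inhibitors IkB alpha, which holds NF-kB in the cytoplasm, and A20, an enzyme that edits ubiquitin chains on the receptor complexes. Both are standard targets of NF-kB. Nfkbia (chromosome 12, 55489411 to 55492647) gave 63.2, 54.6 and 60.7 CPM in control pools against 75.8, 71.7 and 61.3 CPM in *Mttp-IKO* pools. *Mttp-IKO* pools 1 and 2 lay above every control pool and pool 3 lay within the control range (log2 fold change 0.23, 95% interval -0.12 to 0.57, adjusted p = 0.404, edgeR). Its value was above 0 in all 18 alternatives, from 0.04 with scaling to total counts, which shifts the median of all genes to -0.17, to 0.31 without *Mttp-IKO* pool 3.

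Tnfaip3 (chromosome 10, 19000910 to 19015657) gave 33.2, 16.1 and 23.9 CPM in control pools against 22.9, 17.3 and 15.5 CPM in *Mttp-IKO* pools. Control pool 1 was the highest and the other pools were interleaved (log2 fold change -0.39, 95% interval -1.03 to 0.24, adjusted p = 0.431, edgeR). Per length, the ratio of Nfkbia to Nfkb1 was 3.76, 4.07 and 3.97 in control pools and 5.36, 6.06 and 3.94 in *Mttp-IKO* pools. The ratio of *Mttp-IKO* pools 1 and 2 exceeded the narrow control range and that of pool 3 lay within it (difference in log2 ratio 0.36, exact permutation test, two-sided p = 0.3). Of the 3 genes with a kB match in the window, Nfkb2 and Tnfaip3 had log2 fold changes below 0 and Nfkbia above 0, and none passed the test.

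**Figure D2:**
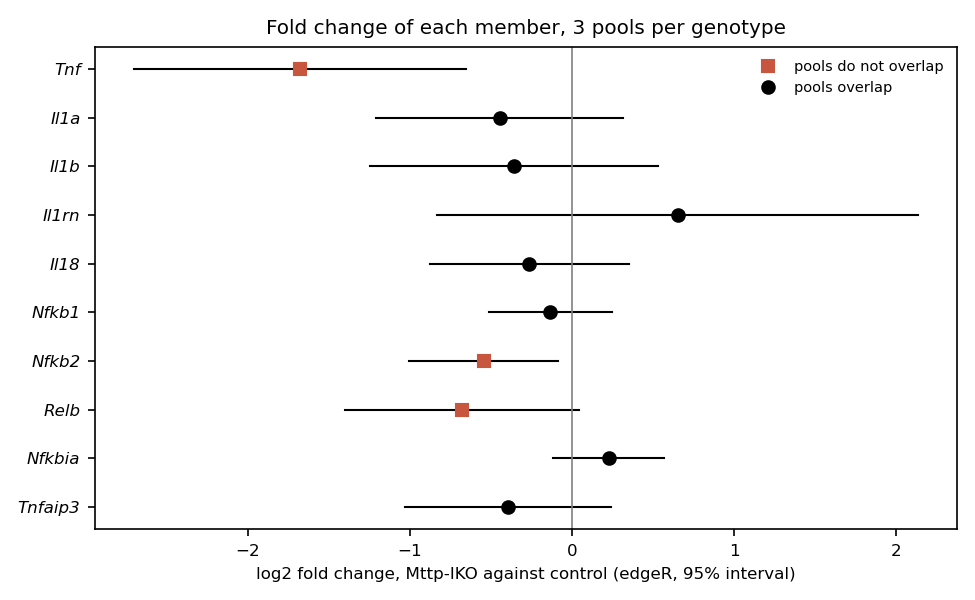
Log2 fold change of *Mttp-IKO* against control (edgeR) for each of the 10 genes, with 95% intervals as lines; squares mark genes whose pools do not overlap between genotypes. The intervals of Tnf (-2.70 to -0.66) and Nfkb2 (-1.0 to -0.08) lie below 0 without adjustment for the number of genes tested.

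Levels of different genes are compared per length, in reads per kilobase of gene model, relative to library size (RPKM, TMM-scaled, mean ± SD, n = 3 pools). In control pools Nfkbia was the most abundant, at 37.8 ± 2.80 RPKM. Nfkb2 (9.82 ± 1.4 RPKM) and Nfkb1 (9.63 ± 1.07 RPKM) followed and could not be ordered, and Il1rn (6.91 ± 3.36 RPKM) overlapped both of them and Il18 (5.68 ± 1.11 RPKM). Tnfaip3 (3.38 ± 1.18 RPKM) and Relb (3.32 ± 0.384 RPKM) had lower means. They overlapped each other and the lowest Il1rn value (3.53 RPKM, control pool 2). Tnfaip3 in control pool 2 (2.23 RPKM) also lay below Il1a in control pool 3 (2.43 RPKM).

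The cytokines Il1a (1.87 ± 0.673 RPKM), Il1b (1.54 ± 0.202 RPKM) and Tnf (1.20 ± 0.129 RPKM) had the lowest means. The control values of Tnf lay below those of Il1b in full. In *Mttp-IKO* pools Nfkbia stood at 44.1 ± 4.72 RPKM and Tnf at 0.366 ± 0.208 RPKM. Nfkbia was the highest and Tnf the lowest of the 10 in each of the 6 pools. The change of order was the place of Nfkb2, which ranked 2 of 10 in control and 4 of 10 in *Mttp-IKO* pools by the mean (6.74 ± 1.42 RPKM), behind Nfkb1 (8.78 ± 1.20 RPKM) and behind Il1rn, whose mean (10.9 ± 10.1 RPKM) was set by pool 3.

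**Figure D3:**
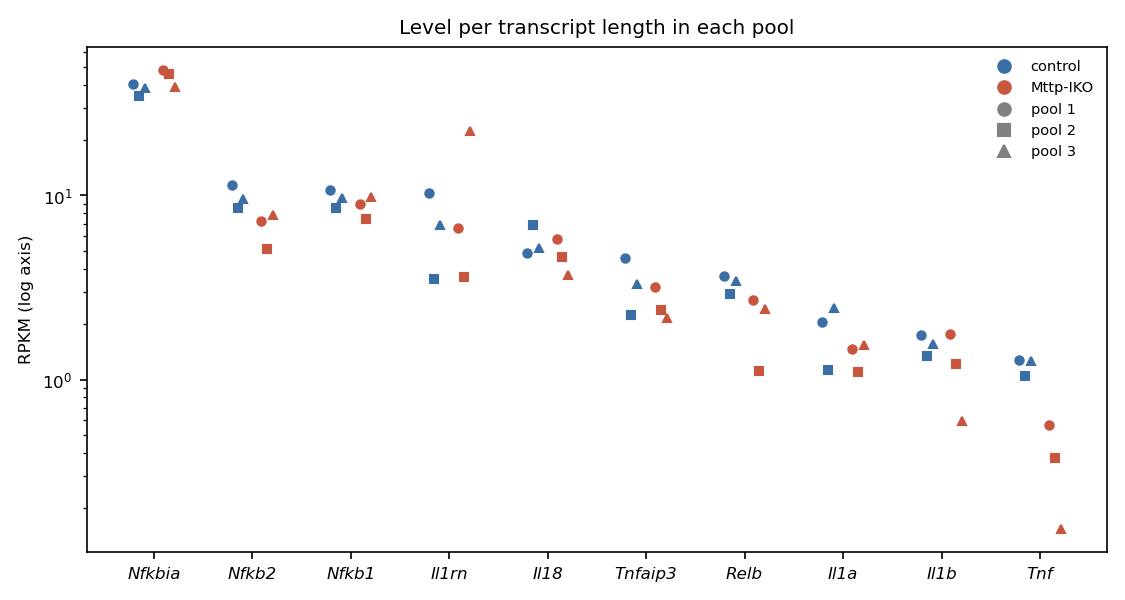
Level per length (RPKM, logarithmic axis) of the 10 genes in each pool, ordered by the control mean, with color for genotype and shape for pool number. Nfkbia is the highest and Tnf the lowest gene in all 6 pools.

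By the profile of log2 CPM over the 6 pools, each centered on its mean, the genes nearest to Tnf among 12593 compared were Ptgr1, AI662270 and Hspa1a, with a root mean square difference of 0.182 to 0.24 on the log2 scale. The nearest to Il1b were Glt8d1, Guk1 and Spcs1 (0.0549 to 0.0856), and to Nfkb2 Arl8a, Castor2 and Slc11a2 (0.0586 to 0.0636). With 6 pools in 2 groups such nearness mostly repeats the difference between groups, and it is given as a description.

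The other genes of the pathway were compared in 7 lists by role, 123 genes in all, of which 106 were tested. Of these 4 fell and 2 rose, beside 3.09% and 0.920% of all genes tested, and the median log2 fold change was -0.20. At an unadjusted p under 0.05 there were 31 of the 106, beside 23.0% of all genes tested, and 23 of them were lower, beside 13.5% of all genes tested. The counts of each list below stand beside these shares. Of all 17287 genes tested, 8554 had a log2 fold change below 0 and 8733 above 0.

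Among 13 tested receptors and decoys, 1 rose and 1 fell, with a median log2 fold change of -0.08. Il1r1, the signaling receptor of interleukin-1, had 68.5, 54.7 and 52.4 CPM in control pools against 139, 158 and 199.6 CPM in *Mttp-IKO* pools. Every *Mttp-IKO* pool was far above every control pool (log2 fold change 1.5 with standard error 0.198, adjusted p = 0.0178, edgeR). It passed the threshold in 15 of 18 alternatives and was higher in all of them. Il1r1 thus rose while none of the genes of its ligands, Il1a, Il1b and Il1rn, passed the test.

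Tnfrsf11a, the gene of the RANK receptor, which signals to NF-kB, had 17.5, 8.45 and 13.6 CPM in control pools against 6.05, 5.24 and 4.99 CPM in *Mttp-IKO* pools. It fell, by 1.28 on the log2 scale (adjusted p = 0.0457, edgeR), and passed in 12 of 18 alternatives. Ltbr, the lymphotoxin beta receptor that feeds the alternative pathway, had the highest mean per length of the list over all 6 pools (58.5 ± 4.49 RPKM in control and 71.5 ± 4.97 RPKM in *Mttp-IKO* pools; log2 fold change 0.29, adjusted p = 0.3, edgeR).

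Of 16 genes of the inflammasome and of cytokine release, 0 passed the test. At an unadjusted p under 0.05 (edgeR) there were 6, beside 23.0% of all genes tested. Of the 16, 13 were below 0, beside 8554 of all 17287 genes tested, and the median log2 fold change was -0.44. Rhbdf2, which carries the TNF-shedding protease to the cell surface, had the highest mean per length over all 6 pools (9.96 ± 2.02 RPKM in control and 13 ± 4.81 RPKM in *Mttp-IKO* pools; log2 fold change 0.38, adjusted p = 0.442, edgeR). Casp1, the gene of the enzyme that cuts the precursors of interleukin-1 beta and interleukin-18, named after its values were seen, had 3.44, 3.05 and 4.09 CPM in control pools against 2.29, 1.37 and 1.72 CPM in *Mttp-IKO* pools. Its pools did not overlap (log2 fold change -0.97, adjusted p = 0.0974, edgeR).

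Of 23 adaptors and kinases between the receptors and IkB, 0 passed (2 at an unadjusted p under 0.05, edgeR) and 15 were above 0, with a median of 0.06. Chuk, the gene of the IkB kinase alpha, had the highest mean per length over all 6 pools (15.4 ± 1.13 RPKM in control and 20 ± 4.06 RPKM in *Mttp-IKO* pools; log2 fold change 0.38, adjusted p = 0.259, edgeR).

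The other NF-kB and IkB genes, 7 in all, held 0 that passed (2 at an unadjusted p under 0.05, edgeR) and had a median of 0.08. Rela, the gene of the transactivating p65 subunit, had the highest mean per length over all 6 pools (25.9 ± 0.214 RPKM in control and 35.4 ± 11.1 RPKM in *Mttp-IKO* pools; log2 fold change 0.45, adjusted p = 0.268, edgeR). In CPM it had 70.9, 69.8 and 70.1 in control pools and 78.3, 79.0 and 131 in *Mttp-IKO* pools, with pool 3 apart.

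Among 16 other feedback genes 1 fell, Traf1, an adaptor that is itself a target of NF-kB. It had 4.43, 2.27 and 2.71 CPM in control pools against 0.612, 1.06 and 1.01 in *Mttp-IKO* pools (log2 fold change -1.82 with standard error 0.375, adjusted p = 0.0422, edgeR), without overlap, and passed in 10 of 18 alternatives. The list's median was -0.10. Tax1bp1, which helps A20 to act, had the highest mean per length of its list over all 6 pools (18.3 ± 0.801 RPKM in control and 19.1 ± 0.8 RPKM in *Mttp-IKO* pools; log2 fold change 0.06, adjusted p = 0.830, edgeR).

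Of 17 tested target genes outside the chemokines, 2 fell and 1 rose, with a median log2 fold change of -0.45. Plau, the gene of urokinase, had 13.4, 7.15 and 13.7 CPM in control pools against 2.09, 2.57 and 1.89 in *Mttp-IKO* pools (log2 fold change -2.38 with standard error 0.301, adjusted p = 0.0166, edgeR). Bcl2a1d, an antiapoptotic gene with near-identical copies, whose unique reads are an incomplete measure, had 1.46, 0.609 and 1.34 CPM in control pools against 0.193, 0.0685 and 0.0838 in *Mttp-IKO* pools (log2 fold change -3.23, adjusted p = 0.03, edgeR). Both were without overlap, and they passed in 14 of 18 and in 11 of 17 alternatives.

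Gadd45b, a stress-response gene that restrains JNK signaling, moved the other way, from 8.82, 8.39 and 11.4 CPM in control pools to 20.3, 21.7 and 25.6 in *Mttp-IKO* pools (log2 fold change 1.24 with standard error 0.187, adjusted p = 0.0192, edgeR), and it passed in 14 of 18. Lcn2, the gene of the acute phase protein lipocalin 2, had the highest mean per length over all 6 pools and was widely spread, at 985, 194 and 511 CPM in control pools against 891, 1000.1 and 244 in *Mttp-IKO* pools (log2 fold change 0.34, adjusted p = 0.791, edgeR).

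Of 14 tested genes of other inflammatory cytokines, 14 had a log2 fold change below 0, with a median of -0.72. None passed the test (8 were lower at an unadjusted p under 0.05, edgeR). Over all 17287 genes tested, 8554 were below 0 and 13.5% were lower at an unadjusted p under 0.05 (edgeR). The number of these cytokine genes below 0 was 14 of 15 without control pool 2 and 13 of 15 without *Mttp-IKO* pool 3. The gene with the highest mean per length over all 6 pools, Mif, had 266, 239 and 247 CPM in control pools against 245, 229 and 68.4 in *Mttp-IKO* pools (log2 fold change -0.47, adjusted p = 0.533, edgeR), its low value being that of pool 3. Named after their values were seen, Il17a, Csf2 and Ifnb1 had 0 reads in all 6 pools, and Il6 had at most 0.0644 CPM, at or under the level that 3 reads give. Whether these cytokines changed was not detectable at this depth.

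**Figure D4:**
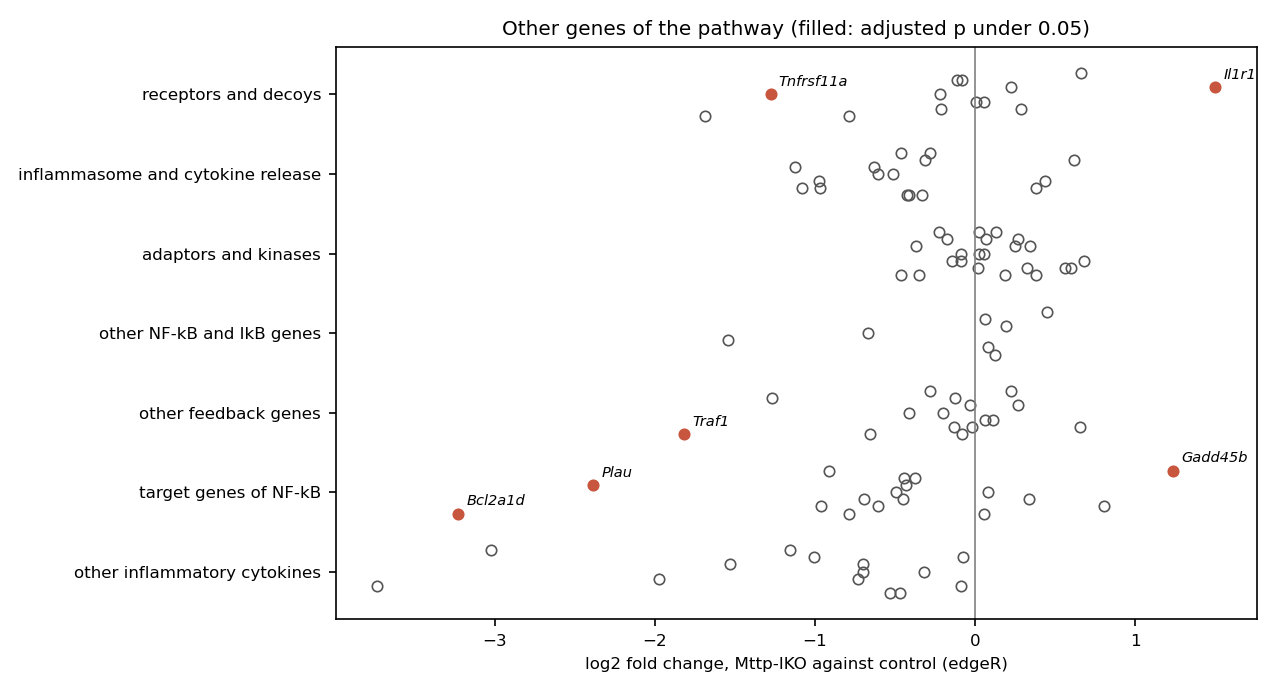
Log2 fold change of *Mttp-IKO* against control (edgeR) of the 106 tested pathway genes outside the 10, each a point, by list; vertical offsets within a list only separate the points, and filled points passed an adjusted p of 0.05. Il1r1 and Gadd45b are filled above 0 and Tnfrsf11a, Traf1, Plau and Bcl2a1d below 0, and all points of the other inflammatory cytokines lie below 0.

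Markers of the immune cells that express these cytokines are given beside them. Of 12 markers of recruited macrophages and monocytes, 6 fell and 11 had a log2 fold change below 0, with a median of -1.87. Their summed level was 466 to 1239 CPM in control pools and 231 to 276 CPM in *Mttp-IKO* pools, and the groups did not overlap. Over all 17287 genes tested, 3.09% were called lower, 13.5% were lower at an unadjusted p under 0.05 (edgeR), and 8554 were below 0. Without *Mttp-IKO* pool 3, 5 of the 12 were called, and without control pool 2, 9. Over all genes these fits called 562 and 771 lower. Without control pool 1, control pool 3, *Mttp-IKO* pool 1 or *Mttp-IKO* pool 2, 0 of the 12 were called (8 to 10 at an unadjusted p under 0.05, edgeR), and 11 or 12 of them were still below 0. Those fits called 15, 17, 32 and 0 genes lower over all genes. The marker with the highest mean per length over all 6 pools, Lyz2, the gene of lysozyme, had 314, 177 and 364 CPM in control pools against 104, 80.0 and 61.4 in *Mttp-IKO* pools (log2 fold change -1.80, adjusted p = 0.0285, edgeR).

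All 8 pan-macrophage markers were below 0 (median -0.79, 0 called, 5 at an unadjusted p under 0.05, edgeR), with sums of 548 to 971 CPM in control and 378 to 552 CPM in *Mttp-IKO* pools, which touched. The 7 Kupffer cell markers did not move that way. Their sums were 337 to 454 CPM in control and 275 to 649 CPM in *Mttp-IKO* pools, their median was 0.12, and 1, Timd4, rose (4.43, 5.21 and 4.55 CPM in control and 14.2, 9.42 and 8.21 in *Mttp-IKO* pools; log2 fold change 1.16, adjusted p = 0.0425, edgeR). The marker with the highest mean per length over all 6 pools, Cd5l, had 236, 124 and 223 CPM in control and 157, 115 and 78.1 in *Mttp-IKO* pools (log2 fold change -0.74, adjusted p = 0.214, edgeR).

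The neutrophil markers, a further source of Il1b and Il1rn, summed to 14.5 to 29.5 CPM in control and 13 to 21.6 CPM in *Mttp-IKO* pools. Of 10, 5 were tested and 0 were called (1 at an unadjusted p under 0.05, edgeR). S100a9, with the highest mean per length over all 6 pools, had 5.92, 1.52 and 5.05 CPM in control pools against 5.76, 1.54 and 1.09 in *Mttp-IKO* pools (log2 fold change -0.56, adjusted p = 0.661, edgeR). The defining marker Ly6g had 0 reads in all control pools and 3, 0 and 2 reads in *Mttp-IKO* pools. Hepatocyte markers, which identify the labelled tissue, were high in every pool (summed 56110 to 91848 CPM in control and 110059 to 166431 CPM in *Mttp-IKO* pools). Of 8 hepatocyte markers, 7 had a log2 fold change above 0, beside 8733 of all 17287 genes tested. None of the 8 was called (6 at an unadjusted p under 0.05, edgeR). The part of these markers in the Tnf, Nfkb2 and Relb differences was not tested.

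**Figure D5:**
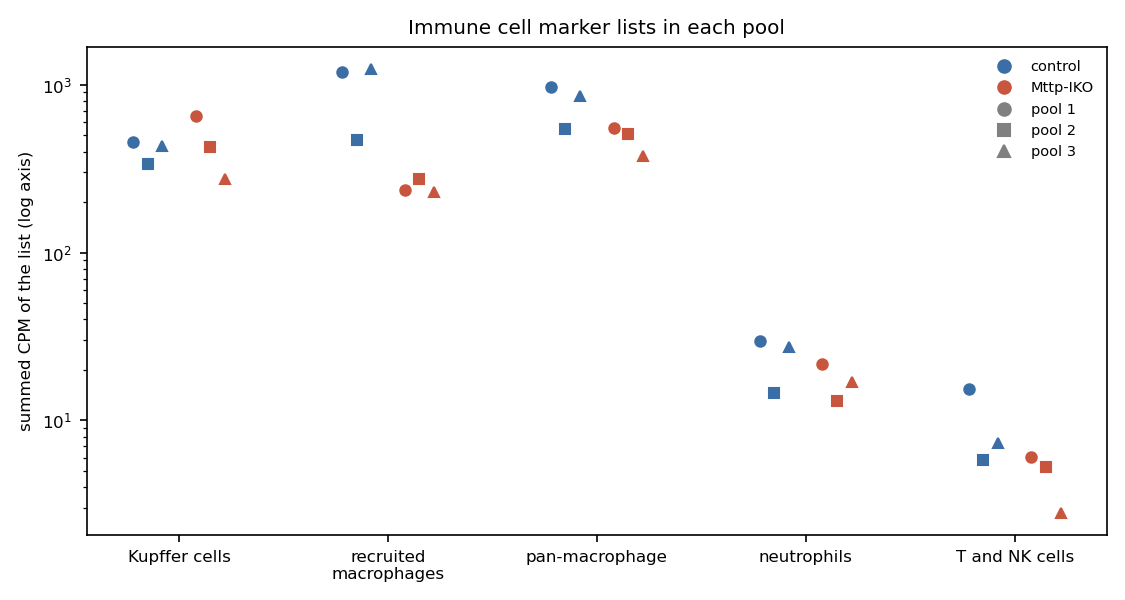
Summed CPM (logarithmic axis) of 5 lists of immune cell markers in each liver pool, with color for genotype and shape for pool number. The recruited macrophage list separates the genotypes (466 to 1239 against 231 to 276 CPM), and the Kupffer cell, neutrophil and T and NK cell lists overlap between them.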

How the data were processed

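Liver RNA of 3 control and 3 *Mttp-IKO* pools was compared, grouped by the sample labels. The authors depleted ribosomal RNA, aligned reads with STAR 2.5.1a to Ensembl release 76 (GRCm38), and deposited read counts of 41388 genes in each pool, made with featureCounts 1.4.6-p5 (unique, unambiguous reads; use of the strand is not stated). The authors also deposited CPM and RPKM values, which follow from the counts and were not tested. In the table of all pools, 276 repeated lines were dropped. Reads with several placements were not counted, which lowers genes with near-identical copies.

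Genes were filtered by edgeR's filterByExpr (minimum count 10, total 15), scaled by TMM (factors 0.899 to 1.11) and compared with glmQLFit and glmQLFTest of edgeR 4.0.16 (R 4.3.3) over 17287 genes, with Benjamini-Hochberg adjustment and a threshold of 0.05. The study names no tool for this test. CPM and RPKM printed in the report were recomputed from the counts with TMM scaling. Single values and ratios were compared by exact permutation of pools, two-sided, which for 3 against 3 cannot give p under 0.1. No 2 pools agreed within sampling noise. The labels do not say that pools were made from separate cohorts of mice beyond the numbers given, so p-values measure the spread between these pools.

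The 10 genes and all lists were chosen with earlier results of these data known. Named from each pathway list were the genes past the threshold (at most 4) and the gene with the highest mean RPKM over the 6 pools, and from the macrophage and neutrophil lists the marker with the highest mean RPKM; further lists of liver, immune, muscle, gut and pancreas markers were summed for each pool, and those that bear on the result are given; a further marker is not reported here. Genes nearest to Tnf, Il1b and Nfkb2 were the 3 with the smallest root mean square difference in centered log2 CPM (average log2 CPM of at least 1). Tests were checked on simulated counts. Alternatives were other scalings, DESeq2 1.42.0, limma 3.58.1 (voom), a robust fit, looser and stricter filters, protein-coding genes alone, a block for the replicate number, a length trend removed by loess, an adjusted p under 0.1, and leaving out each pool. Promoters came from RefSeq (GRCm38.p6) and transcripts from GENCODE M21.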

Additional observations from a re-analysis of the deposited data

How the results depend on the processing

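The count of 0 of the 10 genes past the threshold was 1 with the DESeq2 Wald test and 1 at an adjusted p under 0.1 (Tnf in both), and 0 in every other alternative. Over all genes the count of 694 became 1995 with DESeq2, 428 with limma-voom and 1659 at an adjusted p under 0.1; without control pools 1, 2 or 3 it was 24, 892 or 21, and without *Mttp-IKO* pools 1, 2 or 3 it was 55, 0 or 864. The 6 pathway genes became 10 with total counts only, 17 with DESeq2, 15 at an adjusted p under 0.1, and 0 to 8 with each pool left out (0 without control pool 1, control pool 3 or *Mttp-IKO* pool 2). The cause of these differences was not tested.

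Of the log2 fold changes of the 10 genes, 1 reversed: Il1rn, which ran from -0.43 without *Mttp-IKO* pool 3 to 1.07 without pool 2. The difference in the log2 ratio of Il1b to Il1rn ran from -1.53 without *Mttp-IKO* pool 2 to 0.31 without pool 3. That of Il1a to Il1b ran from -0.43 without *Mttp-IKO* pool 3 to 0.403 without pool 1, and was -0.12 without control pool 2. The counts below 0 in lists without control pool 2 or *Mttp-IKO* pool 3 were alternatives chosen after seeing the data.

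Pools with the same number were not shown to be paired: the correlations of their deviations from the group means were 0.139, 0.112 and 0.007, and each pool correlated best with its own number except *Mttp-IKO* pool 3. With the replicate block 595 genes, 5 pathway genes and 0 of the 10 passed, and with the block and the length trend removed 812, 6 and 0.

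Depth limits Tnf most, with 6 reads in its lowest pool, and leaves Il6, Il17a, Csf2 and Ifnb1 below detection.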

Other observations

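Beyond the macrophages, other cell type markers also differed between the liver pools. Of 8 stellate cell markers, 4 fell and 8 had a log2 fold change below 0 (median -1.46), with sums of 732 to 1118 CPM in control and 446 to 501 CPM in *Mttp-IKO* pools. Des, on the stellate list, was highest in control pool 2, the pool with most of the striated muscle RNA, and was not called (adjusted p = 0.0622, edgeR). Of 6 dendritic cell markers, 2 fell, Flt3 and Siglech, and 5 were below 0 (median -1.73). At an unadjusted p under 0.05 (edgeR), 5 stellate and 3 dendritic cell markers were lower. Over all 17287 genes tested, 3.09% were called lower, 13.5% were lower at an unadjusted p under 0.05 (edgeR), and 8554 were below 0. The 7 endothelial markers had a median of 0.02 and 0 were called (0 at an unadjusted p under 0.05, edgeR). T and NK cell markers summed to 5.79 to 15.4 CPM in control and 2.81 to 6.02 CPM in *Mttp-IKO* pools, and 0 of the 7 tested were called (1 at an unadjusted p under 0.05, edgeR). The part of these markers in the values of the cytokine genes was not tested.

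Striated muscle markers summed to 100.3, 782 and 0.936 CPM in control pools 1 to 3 and to 0.629 to 1.22 CPM in *Mttp-IKO* pools. Without control pool 2, the pool with most of that RNA, the log2 fold change was -1.78 for Tnf (adjusted p = 0.112, edgeR), -0.65 for Nfkb2 (adjusted p = 0.169, edgeR) and -0.79 for Relb (adjusted p = 0.283, edgeR).

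The remaining lists gave no called gene: 0 of 4 tested B cell markers (2 at an unadjusted p under 0.05, edgeR; median -1.40), 0 of 6 cholangiocyte markers (2; median -0.53), 0 of 5 erythroid markers (0; median -0.37), 0 of 3 small intestine markers (0; median 0.25), 0 of 1 pancreas marker (0; -0.53) and 0 of 2 striated muscle markers (2; median -7.05). Markers without a read in a genotype included, beside Ly6g, Sis (19, 2 and 0 reads in control pools) and Pnlip (4, 0 and 2), each with 0 reads in all *Mttp-IKO* pools.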
